A study of Mus musculus with 6 samples.

Results

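The genes of the ErbB receptors and of their EGF-like ligands were followed in EpRas cells that had gone through a long-term epithelial–mesenchymal transition (EMT). The family was given as 10 gene symbols, and each gene was read from its probe set, or from the brightest one where there were several. The receptors are *Egfr*, *Erbb2* and *Erbb3*, and the ligands are *Hbegf*, *Areg*, *Ereg*, *Tgfa*, *Btc*, *Epgn* and *Nrg1*. Each of 9 of these genes had 1 probe set of its own, out of 18820 genes so measured on the array, and *Areg* was not analysed here because the annotation used pairs no probe set with it. EpRas cells are a mouse mammary tumor line of BALB/c background, derived from EpH4 mammary epithelial cells that stably overexpress Ha-Ras, so the oncogene is overexpressed in both groups. The controls were 3 samples left untreated, and the long-term EMT cells were 3 samples kept in 2 ng/ml of recombinant TGF-β1 for 14 days, split and given new TGF-β1 along the way. All were cultures of this same line in medium with fetal calf serum, which can itself carry growth factors.

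ErbB receptors are receptor tyrosine kinases that pair up when a ligand binds. Egfr is bound by the ligands of the EGF group, Erbb3 by neuregulins, while Erbb2 has no ligand of its own and serves as a partner, and Erbb3 has little kinase activity and signals through its partner to phosphatidylinositol 3-kinase. The ligands are made as membrane proteins and are cut loose by metalloproteases of the Adam family, and the receptors feed the Ras/ERK cascade. In the mammary gland the family is best known for *Areg* in duct growth, for neuregulin and Erbb3 in luminal cells, and for *Erbb2* amplification in breast cancer.

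In long-term EMT cells the ligand gene *Hbegf* rose and the neuregulin gene *Nrg1* fell, while none of the 3 receptor genes passed the test. The threshold was a fold above 1.5 together with an adjusted p under 0.05 in a limma fit across all 35556 probe sets, and "rose" and "fell" are used only for that. Of all probe sets, 0.993% passed as higher and 0.928% as lower, and of all 18820 genes 1.47% and 1.49% did, beside 1 higher and 1 lower of the 9 family genes. The median log2 fold change of the 9 genes was -0.25, against 0.02 over all genes, and 7 of the 9 values were below 0, as were 45.5% of those of all genes. Without control replicate 1, which stood apart as described with the markers, 5 of the 9 values were below 0 and their median was -0.14, and without long-term EMT replicate 2 it was 6 and -0.07. Values are log2 RMA values, in which a difference of 1 is a doubling. Each test compares them between samples for 1 gene. Levels of different genes are set side by side only as a rough description, mainly for the markers, since probe sets differ in brightness. Olfactory receptor genes, which mammary cells do not use, set the background level, taken as 4.48, under which 95% of the means of their 1006 probe sets lay.

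The labelled cell type was checked against its markers. The luminal keratins *Krt8* and *Krt18* had control means of 12.79 and 12.56 and differed by -0.003 and 0.01 between the groups. *Epcam* and the E-cadherin gene *Cdh1* were well expressed in control cells, at 9.98 and 9.57, and 5 of 10 epithelial markers fell. Not all keratins followed the luminal pattern: the basal keratins *Krt14* and *Krt5* had control means of 9.67 and 4.61 and the luminal *Krt19* had one of 5.10. *Krt14* fell by 2.22. The mean level over the 10 epithelial markers was 8.93 to 9.48 on control and 7.30 to 7.69 on long-term EMT arrays. Of 7 measured leukocyte markers none passed with limma, none passed at an unadjusted p under 0.05 with that fold, and none passed with the methods' unmoderated test. Their mean level was 4.99 to 5.19 on control and 4.98 to 5.11 on long-term EMT arrays. *Ptprc*, the pan-leukocyte marker, had means of 4.76 and 4.78, a little above the background level. *Cd68* had the highest means of the list, at 8.65 and 8.92, while 3 of the 7 markers lay under the background level in both groups. Of 6 endothelial markers *Cdh5* rose, by 2.49, while *Pecam1*, *Kdr* and *Tek* stayed under the background level in each group, and the list's mean level was 4.23 to 4.28 and 4.58 to 4.82. Of 8 fibroblast markers none passed with limma, and 1 was higher and 2 were lower at an unadjusted p with that fold (1 and 1 with the methods' unmoderated test), with mean levels of 6.04 to 6.56 and 5.80 to 5.97. These means cover a wide range. *Pdgfrb* and *Pdgfra*, the lower ones, had control means of 9.92 and 8.33, well above the background level, and *Thy1* and *Lum* had 4.65 and 3.25. *Dcn* had values of 7.68, 5.98 and 4.50 in control replicates 1 to 3. Control replicate 1 stood apart from the other controls, with 3.81% of probe sets more than 1 log2 unit away from their mean. It did so for 3 of the 9 family genes, being higher for *Erbb3* by 1.52 and for *Btc* by 1.12 and lower for *Egfr* by 1.11. Since these are bulk samples, fewer cells with a transcript and less of it per cell cannot be told apart.

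**Figure D1:**
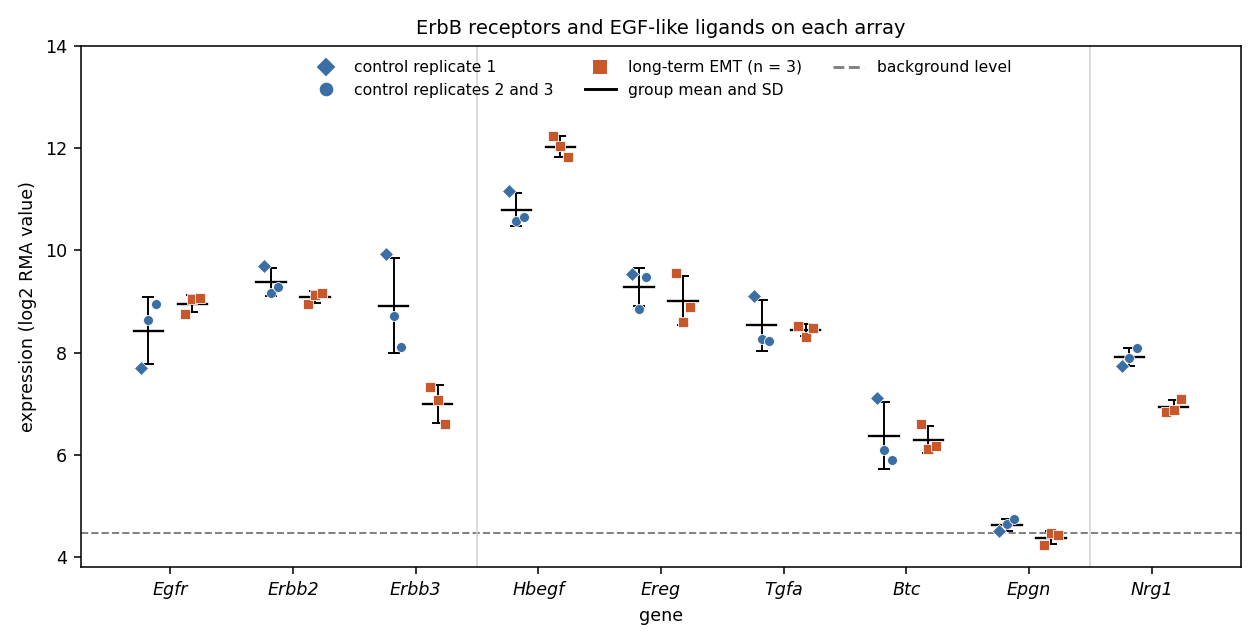
Log2 RMA values of the 9 measured ErbB receptor and ligand genes, array by array, for control cells (blue, replicate 1 as a diamond) and long-term EMT cells (orange squares), with group means and SDs in black and the background level of 4.48 as a dashed line. The groups lie apart for *Erbb3*, *Hbegf*, *Epgn* and *Nrg1*. The control diamond is the highest control for *Erbb2*, *Erbb3*, *Hbegf*, *Ereg*, *Tgfa* and *Btc* and the lowest for *Egfr*, *Epgn* and *Nrg1*.

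Of the receptors, *Erbb3* had the largest difference by value. Its log2 values were 9.93, 8.71 and 8.11 in control replicates 1, 2 and 3 and 7.33, 7.08 and 6.60 in long-term EMT replicates 1, 2 and 3. The long-term EMT arrays all lay below the control arrays, but the controls were spread over almost as wide a range as the difference between the groups. The means were 8.92 ± 0.93 (SD, n = 3) and 7.00 ± 0.37 (SD, n = 3). The log2 fold change was -1.91 (SE (standard error) 0.46, 95% interval -3.03 to -0.80), a 3.77-fold lower value, which did not pass (adjusted p = 0.122 from limma, unadjusted 0.00543). With the unmoderated test that the study's methods name, at an unadjusted p under 0.05 and the same fold, *Erbb3* was lower. By that test 2.5% of all genes were higher and 2.85% lower, and of the family 1 gene was higher and 2 were lower, the same counts as with limma at an unadjusted p, where 2.88% and 3.71% of all genes were. Without control replicate 1 the log2 fold change of *Erbb3* was -1.41 (adjusted p = 0.0614), and without control replicate 3 it was -2.32 (adjusted p = 0.0717). It was below 0 in all 6 fits that left out 1 array and passed in none of them. In control replicate 1, where *Erbb3* was highest, *Epcam* and *Cdh1* were also highest, by 1.14 and 1.06 above the other controls; the part of this in the *Erbb3* values was not tested.

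*Egfr*, the receptor of the EGF-group ligands, had log2 values of 7.69, 8.64 and 8.96 in control and 8.76, 9.04 and 9.07 in long-term EMT replicates 1 to 3. The groups overlapped, because control replicate 3 lay above long-term EMT replicate 1. The log2 fold change was 0.53 (SE 0.32, 95% interval -0.25 to 1.30, adjusted p = 0.576 from limma). Most of this difference came with a low control replicate 1, and without that array it was 0.16 (SE 0.15), while without control replicate 3 it was 0.79 (SE 0.29, adjusted p = 0.342). *Erbb2*, the partner receptor, had values of 9.70, 9.17 and 9.29 in control and 8.96, 9.13 and 9.17 in long-term EMT replicates 1 to 3, where control replicate 2 and long-term EMT replicate 3 had the same value. Its log2 fold change was -0.30 (SE 0.15, 95% interval -0.67 to 0.07, adjusted p = 0.486), and without control replicate 1, the highest array, it was -0.14 (SE 0.10). Both intervals reach past a fold of 1.5 in 1 direction, so that a change of that size is not excluded for either receptor.

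*Hbegf*, which encodes heparin-binding EGF-like growth factor, a ligand of Egfr, was the only family gene that rose. Its log2 values were 11.17, 10.57 and 10.65 in control and 12.23, 12.04 and 11.82 in long-term EMT replicates 1 to 3. Every long-term EMT array lay above every control array. The means were 10.80 ± 0.33 (SD, n = 3) and 12.03 ± 0.21 (SD, n = 3). This is a 2.35-fold rise, with a log2 fold change of 1.23 (SE 0.19, 95% interval 0.78 to 1.69, adjusted p = 0.0318 from limma). The study lists *Hbegf* among its higher genes on these same samples. The call depended on which arrays were in the fit. The log2 fold change was 1.42 (adjusted p = 0.00872) without control replicate 1, and without any other array it lay between 1.12 and 1.34 and did not pass. The adjusted p was then 0.123 without control replicate 2 and 0.0853 without control replicate 3. It was 0.119, 0.143 and 0.0847 with long-term EMT replicate 1, 2 or 3 left out.

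The other measured EGF-group ligands did not pass. *Ereg* (epiregulin) had values of 9.53, 8.86 and 9.48 in control and 9.55, 8.60 and 8.90 in long-term EMT replicates 1 to 3, with a log2 fold change of -0.27 (95% interval -0.97 to 0.42). Single arrays moved the *Ereg* value, to -0.54 when long-term EMT replicate 1 was left out and to -0.07 for replicate 2. For the control arrays of replicates 1, 2 and 3 it moved to -0.15, -0.49 and -0.18. *Tgfa* (transforming growth factor alpha) had values of 9.11, 8.27 and 8.23 in control and 8.53, 8.30 and 8.48 in long-term EMT replicates 1 to 3, with a log2 fold change of -0.10 (95% interval -0.69 to 0.49). The groups overlapped for both genes, and *Tgfa* was highest in control replicate 1. *Btc* (betacellulin, which also binds Erbb4) had values of 7.12, 6.10 and 5.90 in control and 6.61, 6.11 and 6.18 in long-term EMT replicates 1 to 3, with a log2 fold change of -0.07 (95% interval -0.87 to 0.73). Without control replicate 1 the log2 fold changes of *Tgfa* and *Btc* turned to 0.19 and 0.30, and neither passed (adjusted p = 0.45 and 0.485). In the other fits with 1 array left out *Tgfa* lay between -0.25 and -0.03 and *Btc* between -0.31 and 0.02. *Epgn* (epigen) lay at the background level, with values of 4.51, 4.64 and 4.75 in control and 4.24, 4.47 and 4.43 in long-term EMT replicates 1 to 3. The long-term EMT arrays all lay below the controls, but the log2 fold change was -0.25 (SE 0.10, 95% interval -0.502 to -0.005, adjusted p = 0.359 from limma). A gene so close to the background level has little room to be lower. *Epgn*, *Ereg*, *Areg* and *Btc* follow each other on chromosome 5 of the mouse reference (GRCm38.p6), with no other protein-coding gene between them, and *Hbegf* and *Tgfa* lie elsewhere. None of the 3 measured genes of this cluster passed, also at an unadjusted p with a fold above 1.5 in limma or the methods' unmoderated test.

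*Nrg1* encodes neuregulin 1, a ligand of Erbb3 and Erbb4, and was the only family gene that fell. Its log2 values were 7.74, 7.89 and 8.09 in control and 6.84, 6.87 and 7.10 in long-term EMT replicates 1 to 3. The groups lay apart, by more than the spread within either. The means were 7.91 ± 0.18 (SD, n = 3) and 6.94 ± 0.14 (SD, n = 3). The log2 fold change was -0.97 (SE 0.12, 95% interval -1.27 to -0.67), a 1.96-fold fall (adjusted p = 0.017 from limma). It passed without control replicate 1 (adjusted p = 0.0142) and without control replicate 3 (0.0405). It did not pass without control replicate 2 (0.0872) or with long-term EMT replicate 1, 2 or 3 left out (0.0758, 0.097 and 0.0501), with log2 fold changes of -0.98, -0.92, -0.94 and -1.05. *Nrg1* is transcribed in many forms, and its 1 probe set does not tell them apart. Of the 9 genes, 1 lay apart as higher and 3 as lower in long-term EMT cells, where 12.6% and 11.5% of all genes did.

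**Figure D2:**
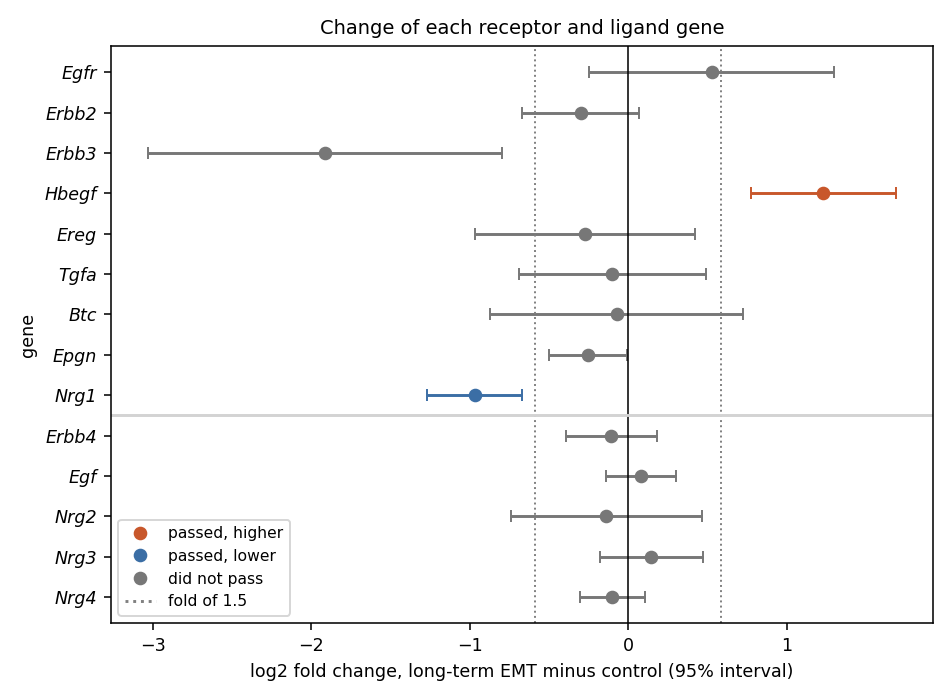
Log2 fold change of each family gene in long-term EMT against control cells, with its 95% interval from limma (n = 3 per group), and below the grey line the remaining receptor and ligands of the family. Orange marks a gene that rose (*Hbegf*), blue one that fell (*Nrg1*), grey those that did not pass, and the dotted lines mark a fold of 1.5. The intervals are not adjusted for the number of probe sets. That of *Erbb3* is the widest, and those of *Erbb3* and *Epgn* lie below 0 although neither gene passed.

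The remaining receptor and ligands of the family were measured as well. *Erbb4*, the other neuregulin receptor, had a control mean of 4.04 and a long-term EMT mean of 3.93, both under the background level. The same was true of *Nrg3* and *Nrg4*, and *Egf*, at 4.55 and 4.63, lay just above. *Nrg2* had a control mean of 6.13 and a log2 fold change of -0.14, which turned to 0.13 without control replicate 1. None of these 5 genes passed with limma, and none did at an unadjusted p with a fold above 1.5 or with the methods' unmoderated test. Their log2 fold changes lay between -0.14 and 0.15, and all 5 overlapped between the groups.

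**Figure D3:**
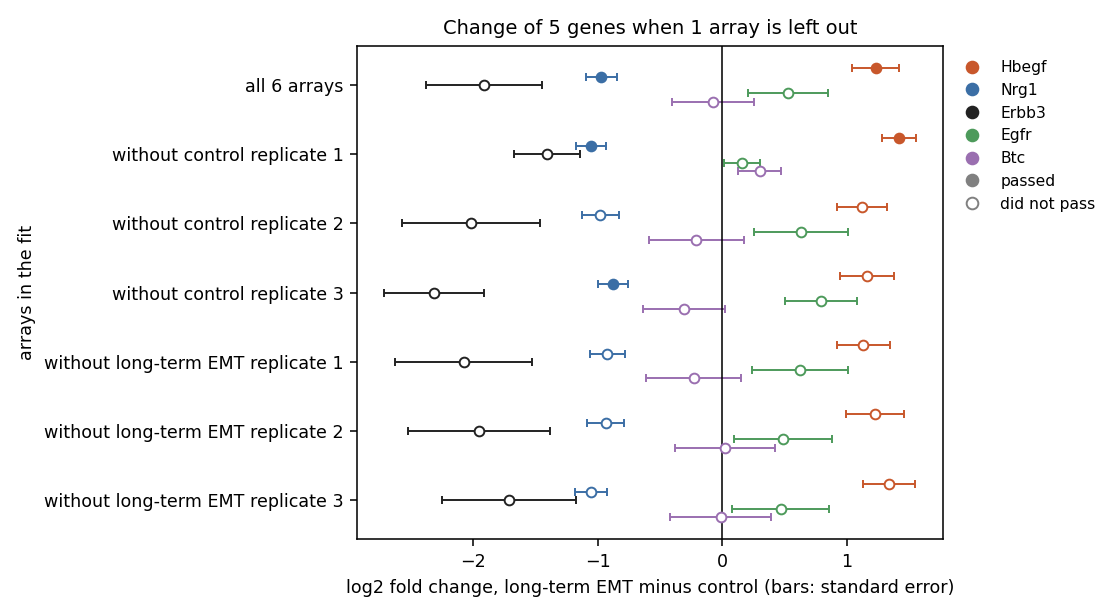
Log2 fold change of *Hbegf*, *Nrg1*, *Erbb3*, *Egfr* and *Btc* with all 6 arrays and with each array left out in turn, with the standard error as a bar; filled points passed and open points did not. *Hbegf* stays between 1.12 and 1.42 and *Nrg1* between -1.05 and -0.88 in the 6 fits, *Erbb3* moves between -2.32 and -1.41, *Egfr* drops to 0.16 without control replicate 1, and *Btc* lies on either side of 0.

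Other genes of the pathway were taken from lists by role, 85 of whose 87 genes were measured. Of these, 7 rose, 6 fell and 72 did not pass, with a median log2 fold change of 0.07, beside 1.47% and 1.49% of all genes that rose and fell. Of the 85 genes, 24 lay apart as higher and 15 as lower, beside 12.6% and 11.5% of all genes. No list was tested as a set, and with 1 array left out the median lay between 0.03 and 0.13. Leaving out control replicate 1 gave 8 rises and 6 falls, control replicate 2 gave 2 and 0, and control replicate 3 gave 6 and 4. Leaving out long-term EMT replicate 1 gave 2 and 1, replicate 2 gave 3 and 1, and replicate 3 gave 2 and 0. Calls over all 18820 genes moved as well, from 276 higher and 281 lower with 6 arrays to 376 and 401 when control replicate 1 was left out, 91 and 98 for replicate 2, and 193 and 265 for replicate 3. Omitting the long-term EMT arrays one by one gave 130 and 128 for the array of replicate 1, 89 and 89 for that of replicate 2, and 108 and 98 for that of replicate 3. Of the genes named here, *Adam12*, *Bace1*, *Pik3r1*, *Cblb*, *Grb7* and *Cblc* passed only when the array left out was control replicate 1 or 3, and *Furin*, *Eps8* and *Etv4* only when it was control replicate 1.

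Among 13 measured genes of ligand shedding, 3 rose and 2 fell (median -0.06), beside 1.47% and 1.49% of all genes. In each direction 3 lay apart, beside 12.6% of all genes as higher and 11.5% as lower. *Adam19*, a metalloprotease able to cut neuregulins, had values of 5.45, 5.94 and 5.82 in control and 7.97, 7.87 and 8.12 in long-term EMT replicates 1 to 3. It rose 4.76-fold, with a log2 fold change of 2.25 (SE 0.15, adjusted p = 0.00239 from limma), and it passed whichever array was left out. *Adam12*, a metalloprotease that can cut the Hbegf precursor, went from 8.27, 8.71 and 8.94 to 9.71, 10.07 and 10.03, a rise of 1.30 (SE 0.19, adjusted p = 0.0286). The groups were apart for both genes. *Timp3*, an inhibitor of Adam17 and other metalloproteases, went from 11.90, 11.55 and 11.75 in control to 9.68, 8.20 and 8.77 in long-term EMT cells. It was 7.21-fold lower, with a log2 fold change of -2.85 (SE 0.36, adjusted p = 0.0165), and passed only without control replicate 1 and without long-term EMT replicates 1 and 2. *Bace1*, a protease of the neuregulin 1 precursor in nerves, fell by 0.91 on the log2 scale (adjusted p = 0.0394). *Furin*, a proprotein convertase that trims Adam precursors, rose by 0.70 (adjusted p = 0.0203); it is the fifth gene of this list that passed and was named after its value was seen. *Adam17*, the main sheddase of several Egfr ligands, and *Adam10* did not pass, with log2 fold changes of -0.30 (SE 0.22) and -0.14 (SE 0.12). Without control replicate 1 these were -0.09 and -0.04. Nor did *Rhbdf1* and *Rhbdf2*, which carry Adam17 to the cell surface, at -0.36 and 0.30, the latter being 0.53 (adjusted p = 0.0607) without control replicate 1 and 0.15 without control replicate 3.

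Of 8 partners of the receptors and ligands, such as the tetraspanin *Cd9* and the heparan sulfate carrier *Sdc1*, none passed with limma, and none passed at an unadjusted p with a fold above 1.5 or with the methods' unmoderated test. Their log2 fold changes lay between -0.99 (*Muc1*) and 0.05 (*Sdc1*). The *Muc1* value was set by control replicate 1, at 7.38, while the other 5 arrays lay between 4.51 and 4.87, and without that array the log2 fold change was -0.12.

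Of 21 adaptors and transducers, 1 rose and 3 fell (median 0.07), beside 1.47% and 1.49% of all genes. Here 6 lay apart as higher and 8 as lower, beside 12.6% and 11.5% of all genes. *Grb7*, an adaptor that binds Erbb2 and Erbb3, had values of 9.83, 8.48 and 7.97 in control and 5.69, 5.60 and 5.47 in long-term EMT replicates 1 to 3. It was 9.02-fold lower, with a log2 fold change of -3.17 (SE 0.45, adjusted p = 0.0248 from limma), and -2.64 (adjusted p = 0.00238) without control replicate 1. In the mouse reference 1 protein-coding gene, *Mien1*, lies between *Erbb2* and *Grb7* on chromosome 11, and of these neighbours *Grb7* fell while *Erbb2* did not pass. The difference between their changes was not tested. *Gab2*, a scaffold that recruits phosphatidylinositol 3-kinase and Ptpn11, went from 7.57, 7.40 and 7.33 to 9.43, 9.42 and 9.48, a 4.03-fold rise (log2 fold change 2.01, SE 0.09, adjusted p = 0.00104), and passed whichever array was left out. The study lists *Gab2* among its higher genes on these samples, and also *Adam19*, *Adam12* and *Etv4*, and it lists *Timp3* among its lower genes. Its higher genes also hold *Ccn1*, under the older symbol Cyr61, which did not pass here. *Pik3r1*, the regulatory subunit through which the kinase docks on Erbb3 and on adaptors, fell by 1.24 (SE 0.15, adjusted p = 0.0153), and *Eps8*, an Egfr substrate that acts on actin, fell by 1.06 (SE 0.17, adjusted p = 0.033). *Grb2*, *Sos1* and *Shc1*, which link the receptors to Ras, had log2 fold changes of 0.16, 0.25 and -0.21 and did not pass.

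Of 22 negative regulators, 2 rose and 1 fell (median 0.19), beside 1.47% and 1.49% of all genes. Here 9 lay apart as higher and 2 as lower, beside 12.6% and 11.5% of all genes. *Cblc*, an epithelial ubiquitin ligase of the Cbl family, which marks ErbB receptors for breakdown, had values of 8.89, 7.87 and 7.00 in control and 4.96, 4.83 and 5.25 in long-term EMT replicates 1 to 3. It was 7.50-fold lower (log2 fold change -2.91, SE 0.45, adjusted p = 0.0329 from limma), and its controls were spread much like those of *Erbb3* and *Grb7*, with control replicate 1 highest and control replicate 3 lowest. Without control replicate 1 the value was -2.42 (adjusted p = 0.0135). The related *Cblb* rose by 0.76 (SE 0.09, adjusted p = 0.0142), and *Cbl* had a log2 fold change of 0.48 (adjusted p = 0.206). *Dusp5*, a phosphatase of ERK that ERK itself induces, went from 9.04, 8.51 and 9.20 to 10.17, 9.89 and 10.17, a rise of 1.16 (SE 0.19, adjusted p = 0.0404), which passed only without control replicate 3 when 1 array was left out. *Spry4* (0.95, adjusted p = 0.106), *Dusp4* (0.73, adjusted p = 0.301) and *Dusp6* (0.39), further feedback genes of the ERK cascade, did not pass, and neither did *Errfi1*, an inhibitor of the Egfr kinase (0.24). The other Spry and Spred genes of this list did not pass either, at -0.52 (*Spry1*), 0.04 (*Spry2*), 0.08 (*Spred1*), 0.26 (*Spred2*) and 0.65 (*Spred3*). *Spry1* stood at 9.25 in control replicate 1 and between 7.26 and 7.64 on the other arrays. The *Dusp6* value was 0.68 (adjusted p = 0.0995) without control replicate 1 and 0.17 without control replicate 3.

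Of 16 measured early response targets of the receptors, 6 lay apart as higher and 1 as lower, beside 12.6% and 11.5% of all genes. Among these targets 1 rose (median 0.27), beside 1.47% of all genes. The gene that rose was *Etv4*, an Ets transcription factor downstream of ERK, with values of 9.09, 9.14 and 9.13 in control and 9.78, 9.72 and 9.66 in long-term EMT replicates 1 to 3. Its log2 fold change was 0.60 (SE 0.07, adjusted p = 0.0146 from limma), a fold of 1.52 just past the threshold. The cyclin gene *Ccnd1* had a log2 fold change of -0.11 (SE 0.08). *Fos*, an immediate early gene, had values of 7.44, 5.38 and 5.23 in control and 6.22, 5.73 and 5.87 in long-term EMT replicates 1 to 3. Its log2 fold change of -0.08 (SE 0.58) turned to 0.64 (SE 0.16, adjusted p = 0.124) without control replicate 1. *Ccn1* had the largest value of the list, 1.11 (SE 0.29, adjusted p = 0.144 from limma), and did not pass. Its groups lay apart, and at an unadjusted p with a fold above 1.5 it was higher.

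**Figure D4:**
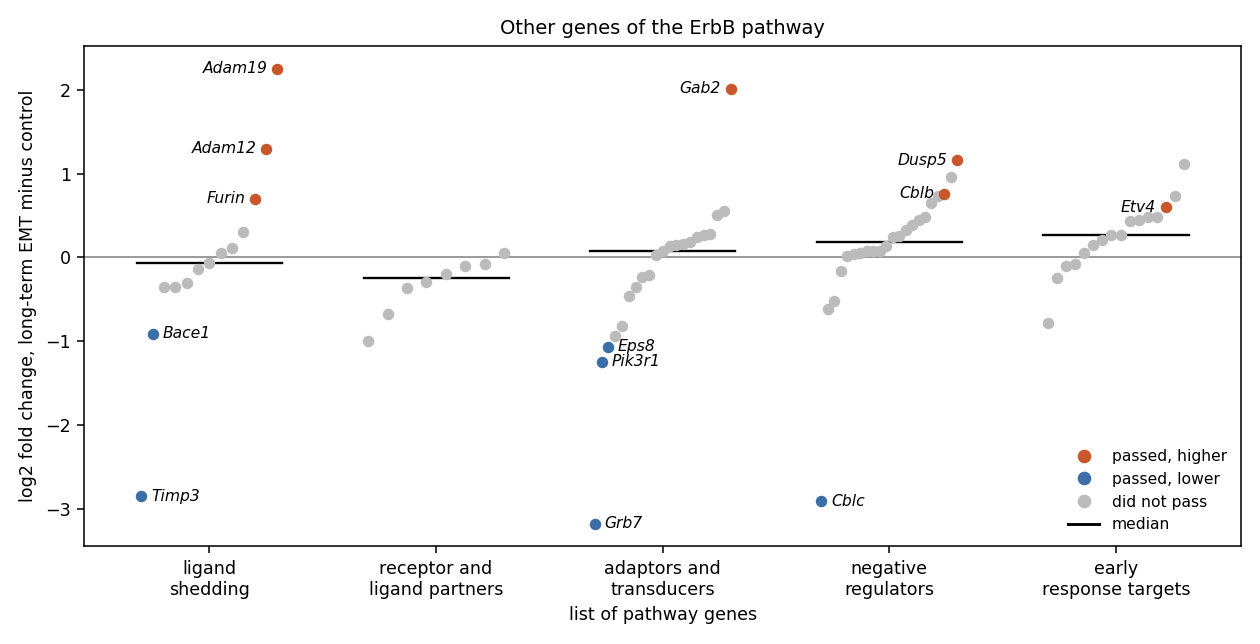
Log2 fold change in long-term EMT against control cells of the other measured genes of the ErbB pathway, each a point, sorted within 5 lists by role, with the list's median as a black line. Orange points rose, blue points fell and grey points did not pass; *Adam19* and *Gab2* are the highest and *Grb7*, *Cblc* and *Timp3* the lowest, while the medians lie between -0.24 and 0.27.

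The genes whose profile over the 6 arrays lay closest to those of *Hbegf* and *Nrg1* were found by the root mean square difference of log2 values, each taken relative to its control mean. Nearest to *Hbegf* were *Hmgcll1* (0.124), *Zfp618* (0.133) and *Plek2* (0.134), of which *Hmgcll1* and *Zfp618* rose, by 1.24 and 1.30, and *Plek2* did not pass (1.13, adjusted p = 0.0637 from limma). Nearest to *Nrg1* were *Pcx*, the pyruvate carboxylase gene (0.0895), *Spc24*, a kinetochore gene (0.114), and *Tmem79* (0.118). *Pcx* and *Tmem79* fell, by 1.00 and 0.86, and *Spc24* did not pass (-0.86, adjusted p = 0.0629).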

How the data were processed

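RNA of 3 untreated and 3 TGF-β1-treated samples of EpRas cells, 150 ng each, was hybridized to Affymetrix MoGene-1_1-st-v1 arrays, 1 per sample. The log2 values of 35556 probe sets, deposited by the authors with 2 decimals, came from the RMA algorithm (Robust Multi-array Average); the processing notes name Affymetrix Expression Console, without a version. No further normalization was applied. Probe sets with 1 gene symbol (21218) named genes, those with several (1881) or none (12457) did not, and control probe sets are not marked, so that all were fitted. The group comparison used lmFit and eBayes of limma 3.58.1 (R 4.3.3), two-sided, and p-values were adjusted after Benjamini-Hochberg across the whole array. Intervals are 95% intervals of this fit.

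The family genes and the lists were chosen with earlier results of these data known. Named genes are all family genes, the genes with the largest change that passed in each list (at most 4), and the 3 genes nearest to the family genes with the largest rise and fall; further list members are examples chosen after their values were seen. Gene order is from the RefSeq gene table of GRCm38.p6. The array number limits the precision. The samples are called triplicates; whether they came from separate experiments is not stated for the arrays, so that the spread behind the p-values is that of these samples only and may be technical. On simulated data of 35556 probe sets, the fit recovered 55 of 100 probe sets changed 2-fold and 87 of 100 changed 4-fold, with 5 false calls. Alternatives were a trended and robust prior, treat, the methods' t-test, a replicate block, repeated quantile normalization, equal medians, dim probe sets left out, other folds, averaged probe sets, other background percentiles and each array left out. An unadjusted p was added after the data were seen.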

Additional observations from a re-analysis of the deposited data

How the results depend on the processing

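With treat against a fold of 1.5, no family gene passed (0 higher, 0 lower), with *Hbegf* at 1.23 (adjusted p = 0.54) and *Nrg1* at -0.97 (adjusted p = 0.716), and 2 pathway genes were higher and 0 lower, against 7 and 6. Over all probe sets 51 were then higher and 84 lower, against 353 and 330 in the main fit. With the methods' t-test after Benjamini-Hochberg adjustment the family counts were again 0 and 0 and the pathway counts 2 and 0 (*Hbegf* 1.23, adjusted p = 0.172, and *Nrg1* -0.97, adjusted p = 0.111), with 43 and 26 over all probe sets. With that t-test unadjusted, and with limma unadjusted, 2 family genes were lower in place of 1, the added gene being *Erbb3* (-1.91), and unadjusted limma gave 12 higher pathway genes. Over all probe sets the unadjusted t-test gave 638 higher and 688 lower, and unadjusted limma 785 and 915. At a fold of 2, *Nrg1* (-0.97) no longer passed, so that 0 family genes were lower, and 4 pathway genes were higher. Of all probe sets 194 were then higher and 226 lower. Deviations of same-numbered arrays from their group means correlated at 0.188, 0.02 and 0.249. Those of different-numbered arrays correlated at -0.267 to 0.142, and not every array correlated best with its own number. Whether the replicate numbers pair the samples is not stated, and these values do not settle it. A limma fit with the replicate block kept *Hbegf* and *Nrg1* past the threshold (adjusted p = 0.0274 and 0.0241). It gave *Erbb3* an adjusted p of 0.0527, and 5 higher and 3 lower pathway genes. Over all probe sets 256 were higher and 278 lower. With the block the SE was 0.113 for *Hbegf*, 0.082 for *Nrg1* and 0.243 for *Erbb3*, against 0.189, 0.123 and 0.463 without it. Of the family genes only *Erbb2* had a larger SE with the block (0.167 against 0.152). When 1 array was left out, the family counts were 0 to 1 higher and 0 to 1 lower, and the pathway counts 2 to 8 higher and 0 to 6 lower. Log2 fold changes then ranged from 1.12 to 1.42 for *Hbegf*, -1.05 to -0.88 for *Nrg1*, -0.25 to 0.19 for *Tgfa* and -0.31 to 0.30 for *Btc*, whose sign also turned, to 0.02, without long-term EMT replicate 2. Fits with 1 array fewer have fewer samples; other causes were not tested. *Hbegf* rose and *Nrg1* fell also with the other prior, both other normalizations, dim probe sets left out and averaged probe sets. *Epgn* lay at the background level and was the only measured family gene not above it in both groups. Other limits of signal were not tested.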
